A study of Mus musculus with 24 samples.

Results

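The comparison asked whether the ileum answered an activator of the liver X receptors (LXR) differently when its epithelium carried Cre against Abca1. It used all 12 ileum libraries of the 24 in the study, 3 in each of 4 groups. For every gene, the change with the drug in Abca1 fl/fl X Villin-Cre mice was set against the change in Abca1 fl/fl mice, and genes were sorted by whether the responses were shared, differed in size, were called in 1 genotype or ran in opposite directions. The groups were Villin-Cre mice given GW3965, Villin-Cre mice given vehicle, floxed mice given GW3965 and floxed mice given vehicle. All were C57BL/6, all carried Abca1 alleles flanked by loxP sites, and all had undergone resection of 75% of the small bowel. GW3965, suspended in 0.5% carboxymethyl cellulose, was an oral dose of 1 mg/kg/day on 2 occasions a week over the last 5 of the 10 weeks after surgery. The Villin promoter drives Cre in intestinal epithelium, so Abca1 in other cells of the gut wall is not a target of the deletion. Neither the age and sex of the mice nor which animal gave which library is given in the sources used here, and mice with Villin-Cre but without floxed Abca1 alleles were not analysed here.

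LXRs are nuclear receptors that bind oxysterols and, with the retinoid X receptor, switch on genes that move cholesterol out of cells and genes that make fatty acids. GW3965 is a synthetic LXR agonist. ABCA1, itself an LXR target, is the transporter that hands cellular cholesterol and phospholipid to apolipoprotein A-I, and the intestine is a known source of high-density lipoprotein. The ileum also reclaims bile acids and holds receptors for foreign compounds, PXR (Nr1i2) and CAR (Nr1i3), which switch on cytochromes P450, conjugating enzymes and drug exporters.

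Levels are in CPM, reads of a gene per 1000000 assigned reads, without correction for gene length, and errors are SD over 3 libraries. Responses and differences are on the log2(CPM + 0.5) scale with their SE, where a difference is the Villin-Cre response minus the floxed response, so that a positive value means a larger rise or a smaller fall with GW3965 in Villin-Cre mice. That scale understates the change of low genes, and 149 genes with a called difference (2.42%) had the other sign when the difference was taken in CPM. A call is a Benjamini-Hochberg adjusted p under 0.05 in limma over 18656 genes. Depth was 16.96 to 24.2 M assigned reads a library. Reads of the Cyp2c, Cyp2d, Cyp3a, Ces2, Gstm, defensin, gasdermin C and IFN-inducible GTPase families could be split between copies by the counting, and those of antisense or overlapping genes shared; no source used here gives its strand setting.

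The libraries of a group lay close together, except for floxed GW3965 replicate 3. The variance between libraries of a group was 2.63 to 4.10 times the Poisson variance of their reads, but 8.74 and 8.14 times between that library and the others of its group, and 9.16 to 48.5 times between libraries of different groups. Both mates of most fragments were counted, so part of each ratio comes from counting alone. Since no source used here ties a library to an animal, the p-values rest on library spread, possibly technical. With close libraries averaged to 1, each group but floxed GW3965 was left with a single value, assumed to vary like the remaining pair, and limma called 0 differences, with 2098 genes at an unadjusted p under 0.05 and a smallest adjusted p of 0.069. Every called difference below therefore rests on treating the 12 libraries as independent. Responses were still called in both genotypes for 78 genes and in 1 genotype for 1241. The predicted gene Gm26917 took 3.92 to 4.20% of reads in Villin-Cre mice given GW3965, 11.5 to 12.2% in Villin-Cre mice given vehicle, 6.57 to 7.92% in floxed mice given GW3965 and 10.4 to 11.6% in floxed mice given vehicle. Leaving its reads out of the total moved the median Villin-Cre response over all genes to -0.21, against -0.11 with them, and the median difference to -0.09, against -0.03. The enterocyte marker Vil1 was at 2061 to 3779 CPM in the 12 libraries, while the pancreatic genes Cela1 and Prss2 were at no more than 5.20 and 1.13 CPM.

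Abca1 itself rose with GW3965 in both genotypes, and rose less in Villin-Cre mice. It stood at 53.7, 53.7 and 54.0 CPM in the Villin-Cre libraries with GW3965 and at 25.7, 30.6 and 28.5 CPM in those with vehicle. In floxed mice Abca1 stood at 428, 438 and 251 CPM with GW3965, replicate 3 being the lowest, and at 59.9, 57.4 and 54.2 CPM with vehicle. Libraries with and without the drug did not overlap in either genotype, and every Villin-Cre library given the drug lay just below the floxed vehicle libraries. The response was 0.92 ± 0.14 in Villin-Cre and 2.65 ± 0.14 in floxed mice, a difference of -1.73 ± 0.20 (adjusted p = 5.9e-06). Reads are summed over the whole gene (chr4:53030787-53159895, minus strand, GRCm38, protein coding) and over all cells, so they include non-epithelial cells and exons outside the deleted stretch.

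Of the 18656 genes, 6154 had a called difference (33.0%), 2729 above 0 (14.6%) and 3425 below it (18.4%). At least 2-fold differences were found for 635 (3.40%) and 1736 (9.31%). The drug response itself was broader in Villin-Cre mice, where 4004 genes were higher with GW3965 (21.5%) and 5795 lower (31.1%), against 2735 higher (14.7%) and 3898 lower (20.9%) in floxed mice. The median size of the response over all genes was 0.42 in Villin-Cre and 0.29 in floxed mice. Across the 18656 genes, which are not independent, the responses correlated with r = 0.44, a description over 6 libraries against the other 6. Of 4724 genes called in both genotypes, 4057 had the same sign.

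The sort gave 2512 shared responses (13.5% of genes tested), called in both genotypes with the same sign and no called difference. For 2201 of these the 95% interval of the difference lay within 1 log2 unit of 0. A further 1278 genes (6.85%) had the same sign and a larger response in Villin-Cre mice, of which 534 rose (2.86%) and 744 fell (3.99%), and 267 (1.43%) had the same sign and a larger response in floxed mice, or 413 without floxed GW3965 replicate 3. Responses were called in Villin-Cre mice alone, with a called difference, for 2849 genes (15.3%) and in floxed mice alone for 927 (4.97%). Opposite responses, called in both genotypes with different signs, were found for 667 genes (3.58%), and for 1101 without floxed GW3965 replicate 3. Requiring 2-fold responses and differences left 36 opposite genes. The remaining genes had a call in 1 genotype with no called difference (3208), a called difference with neither response called (166) or no call (6782). Villin-Cre mice given GW3965 were the group farthest from the other 3 in 43.9% of the differences above 0 and in 70.3% of those below it.

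**Figure D1:**
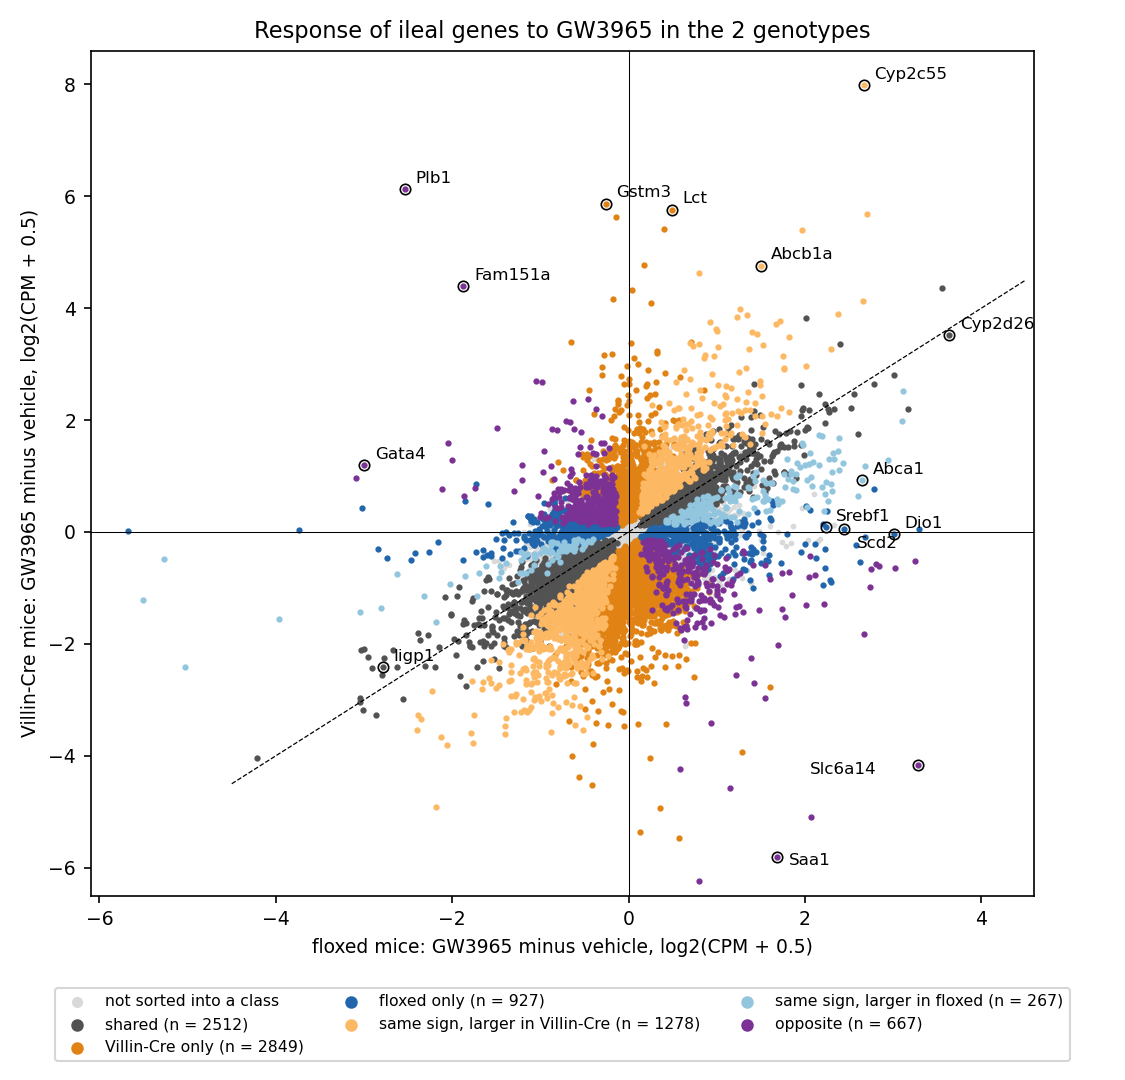
Response of each of 18656 genes to GW3965 (log2(CPM + 0.5), GW3965 minus vehicle) in floxed mice (horizontal) and in Villin-Cre mice (vertical), coloured by the class it was sorted into, with the dashed line where the responses are equal. Named genes are ringed: Abca1, Srebf1, Scd2 and Dio1 lie to the right, below the line, Cyp2c55, Gstm3 and Lct high above it, and Plb1, Gata4, Saa1 and Slc6a14 in the quadrants of opposite sign.

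LXR targets mostly had differences below 0. Of 23 tested, 15 had a called difference below 0, against 18.4% of all genes, and 2 above it, against 14.6%; without floxed GW3965 replicate 3 these counts were 15 and 4. The median difference was -0.83, against -0.03 over all genes. The shares of 18.4% below 0 and 14.6% above it apply to the counts of every list below. In Villin-Cre mice 10 rose, against 21.5% of all genes, and 7 fell, near the share of 31.1%. In floxed mice 15 rose, against 14.7% of all genes, and 1 fell, against 20.9%. Of the 24 listed genes, Cetp did not pass the filter. The list was sorted as 6 genes with a larger response in floxed mice, 6 called in Villin-Cre mice alone, 3 in floxed mice alone, 3 shared and 2 opposite, with 3 others outside these classes. Over all genes these classes held 1.43%, 15.3%, 4.97%, 13.5% and 3.58%, in that order. Larger responses in Villin-Cre mice held 6.85%. These shares apply to the class counts of every list below.

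The sterol exporters kept a response in Villin-Cre mice. Abcg5, which with Abcg8 returns sterols to the gut lumen, stood at 284, 286 and 294 CPM with GW3965 and 116, 114 and 119 CPM with vehicle in Villin-Cre mice. In floxed mice Abcg5 stood at 487, 513 and 406 CPM with GW3965 and 100.1, 96.1 and 93.2 CPM with vehicle. The drug groups were above their vehicle groups in every library, floxed libraries with the drug were the highest of all, and the difference was -0.96 ± 0.10 (adjusted p = 1.2e-06). Abcg8 had a difference of -0.83 ± 0.09. Abcg1, which exports cholesterol to lipoprotein particles, averaged 9.49 ± 0.972 CPM with GW3965 and 7.18 ± 0.530 CPM with vehicle in Villin-Cre mice, against 37.1 ± 8.04 CPM with GW3965 and 7.53 ± 0.964 CPM with vehicle in floxed mice. Its Villin-Cre response was 0.38 ± 0.15 (adjusted p = 0.047), its floxed response 2.21 ± 0.15 and the difference -1.84 ± 0.21. Mylip, a ubiquitin ligase that marks the LDL receptor for degradation, had responses of 1.19 ± 0.09 in Villin-Cre and 2.16 ± 0.09 in floxed mice. The LXR targets with a difference above 0 were Abcb4, the phospholipid floppase of the bile canaliculus, at 10.0 CPM with GW3965 and 0.662 CPM with vehicle in Villin-Cre mice, against 2.08 CPM with GW3965 and 1.54 CPM with vehicle in floxed mice, and Nr1h3, which encodes LXR alpha and had a difference of 0.37 ± 0.14. The Nr1h3 call held without floxed vehicle replicate 2, floxed GW3965 replicate 3 or Villin-Cre vehicle replicate 3, and was lost without each of the other libraries (0.30 to 0.39). It was also lost on CPM without Gm26917 and with no filter (adjusted p = 0.103 and 0.0816). The deposited log2 values and limma with voom weights lost it as well (adjusted p = 0.0502 and 0.0639). Each of these settings left 1 LXR target above 0.

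Of the lipogenic targets, Srebf1 and Scd2 were called in floxed mice alone. Srebf1, the regulator of fatty acid synthesis genes, stood at 82.1, 83.3 and 83.0 CPM with GW3965 and 80.9, 72.0 and 80.5 CPM with vehicle in Villin-Cre mice. In floxed mice Srebf1 stood at 489, 495 and 252 CPM with GW3965 and 81.4, 79.1 and 90.1 CPM with vehicle. The Villin-Cre response of 0.09 ± 0.17 was not called (adjusted p = 0.68), the floxed response was 2.23 ± 0.17, and the difference was -2.14 ± 0.24 (adjusted p = 3.4e-06). Scd2, a stearoyl-CoA desaturase, was likewise called in floxed mice alone, at 1961, 2015 and 839 CPM with GW3965, with replicate 3 the lowest, and 274 ± 15.7 CPM with vehicle. In Villin-Cre mice it averaged 361 ± 10.2 CPM with GW3965 and 349.6 ± 6.85 CPM with vehicle. Its paralogue Scd1 rose in both genotypes, by 1.09 ± 0.06 in Villin-Cre and 1.84 ± 0.06 in floxed mice. Fasn, the fatty acid synthase gene, had the smallest p of the list. It stood at 142, 150.0 and 133 CPM with GW3965 and 308, 292 and 320.2 CPM with vehicle in Villin-Cre mice, with no overlap, and at 549, 586 and 744 CPM with GW3965 and 546, 537 and 591 CPM with vehicle in floxed mice, where the libraries overlapped. Its difference was -1.27 ± 0.12 (adjusted p = 6.8e-07). Acaca, which makes malonyl-CoA, had opposite responses, -0.31 ± 0.07 in Villin-Cre and 0.50 ± 0.07 in floxed mice.

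**Figure D2:**
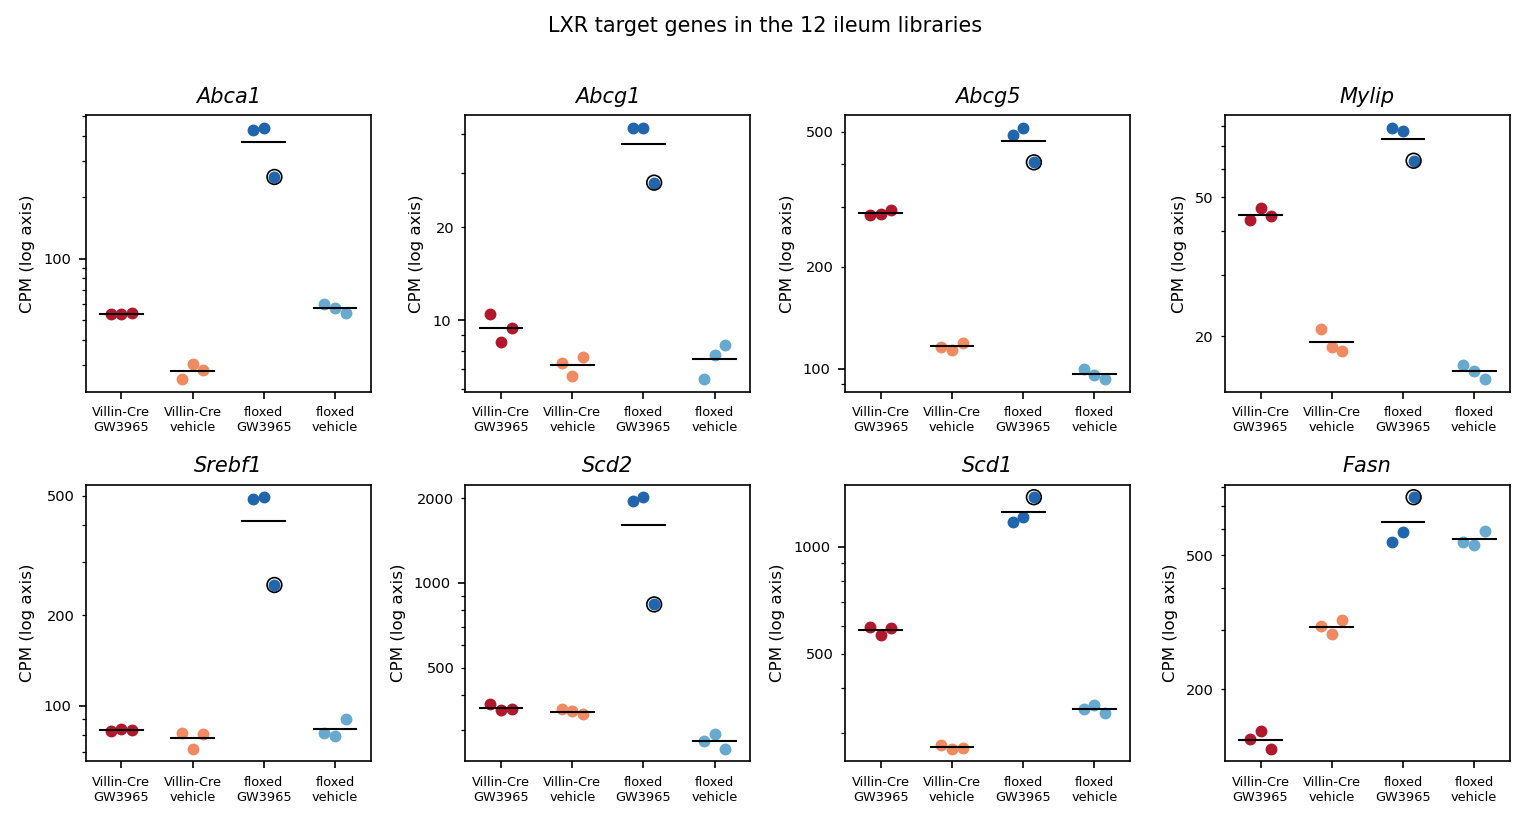
CPM (log axis) of 8 LXR target genes in every library, by group, with bars at the group means and a ring around floxed GW3965 replicate 3. For Abca1, Abcg1, Srebf1 and Scd2 the floxed libraries given GW3965 stand above all others, while Fasn is lowest in Villin-Cre mice given GW3965.

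Beyond the LXR list, the fatty acid and triglyceride synthesis genes were mixed, with 11 of 23 tested below 0, 7 above it and a median difference of -0.44. Fads1, the delta-5 desaturase, averaged 11.8 CPM with GW3965 and 26.3 CPM with vehicle in Villin-Cre mice, against 32.8 CPM with GW3965 and 27.2 CPM with vehicle in floxed mice, a difference of -1.40 ± 0.14. Elovl1, which lengthens very long chain fatty acids, and Dgat1, which makes triglyceride, had differences above 0, at 0.90 ± 0.09 and 0.77 ± 0.07. Elovl6, an elongase of shorter chains, averaged 44.9 CPM with GW3965 and 47.5 CPM with vehicle in Villin-Cre mice, against 40.1 CPM with GW3965 and 86.0 CPM with vehicle in floxed mice, its floxed vehicle libraries being the highest. Of 22 cholesterol synthesis and uptake genes, 11 had a difference below 0 and 1 above it, with a median of -0.24. Pmvk, Mvd and Mvk, enzymes of the mevalonate pathway, had differences of -0.95, -1.06 and -0.61. Insig1, which retains the sterol sensor in the endoplasmic reticulum, had a difference of -0.90.

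Genes of the drug response ran the other way, rising further with GW3965 in Villin-Cre mice. Of 22 tested members of a PXR and CAR list, 18 had a difference above 0, against 14.6% of all genes, and 1 below it, with a median of 1.79. In Villin-Cre mice 21 rose, against 21.5% of all genes, and 1 fell, against 31.1%. In floxed mice 13 rose, against 14.7% of all genes, and 4 fell, near the share of 20.9%. The sort placed 11 as larger in Villin-Cre mice, 4 as called in Villin-Cre mice alone, 4 as opposite and 2 as shared. Cyp2c29 did not pass the filter. The summed level of the list was 6619.8 to 6746 CPM in Villin-Cre libraries with GW3965, 823 to 838 CPM in those with vehicle, 1748 to 1973 CPM in floxed libraries with GW3965 and 983 to 1046 CPM in those with vehicle. The receptors themselves moved differently. Nr1i2, which encodes PXR, had a shared response, with a difference of 0.03 ± 0.07 and a 95% interval of -0.12 to 0.19, while Nr1i3, which encodes CAR, averaged 5.62 CPM with GW3965 and 1.12 CPM with vehicle in Villin-Cre mice, against 2.65 CPM with GW3965 and 4.58 CPM with vehicle in floxed mice.

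Among the cytochromes P450, Cyp2c55 showed the largest difference of the list after the glutathione transferase Gstm3. It stood at 158, 151 and 155 CPM in Villin-Cre mice given GW3965 and at 0.103, 0.117 and 0.108 CPM in the Villin-Cre vehicle group. In floxed mice Cyp2c55 stood at 4.86, 5.03 and 2.57 CPM with GW3965 and 0.0988, 0.235 and 0.315 CPM with vehicle. Drug and vehicle libraries were apart in both genotypes, which was a condition for being named by size. The difference was 5.33 ± 0.30 (adjusted p = 1.8e-09). Cyp3a11, a main drug-oxidising enzyme, averaged 123 ± 4.31 CPM with GW3965 and 2.44 ± 0.203 CPM with vehicle in Villin-Cre mice, against 6.04 ± 0.998 CPM with GW3965 and 1.35 ± 0.932 CPM with vehicle in floxed mice, a difference of 3.43 ± 0.41. Cyp2b10, the standard CAR target, was at 9.35 to 10.7 CPM in Villin-Cre mice given GW3965, against 0 to 0.234 CPM in the Villin-Cre vehicle group, 0.174 to 0.396 CPM in floxed mice given GW3965 and 0 to 0.210 CPM in floxed mice given vehicle. Cyp3a25, in contrast, rose in both genotypes, by 4.37 ± 0.26 in Villin-Cre and 3.55 ± 0.26 in floxed mice, with a difference of 0.82 ± 0.37 that was not called (adjusted p = 0.1), but was called without floxed vehicle replicate 3 (1.06) and without floxed GW3965 replicate 2 (1.03). It was also called with a pseudocount of 2 (0.91). Cyp3a13 had opposite responses, 1.51 ± 0.06 in Villin-Cre and -0.43 ± 0.06 in floxed mice.

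Cyp2c55 and Cyp3a11 are shown with the 250 bases before their gene start because each holds a repeat of the receptor letters AGGTCA. Capitals mark the match, the direct repeats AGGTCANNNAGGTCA (DR3) for Cyp2c55 and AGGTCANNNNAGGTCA (DR4) for Cyp3a11. The sequences are from RefSeq (GRCm38.p6), 5′ to 3′ on the strand of the gene. The bases shown for Cyp2c55 are chr19:39006769-39007018 on the plus strand and those for Cyp3a11 chr5:145879855-145880104 on the minus strand.
Cyp2c55: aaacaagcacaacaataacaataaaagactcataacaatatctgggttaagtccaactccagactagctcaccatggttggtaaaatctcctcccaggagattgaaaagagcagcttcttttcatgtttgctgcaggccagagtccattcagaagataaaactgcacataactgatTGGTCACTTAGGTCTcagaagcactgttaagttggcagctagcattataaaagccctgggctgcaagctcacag
Cyp3a11: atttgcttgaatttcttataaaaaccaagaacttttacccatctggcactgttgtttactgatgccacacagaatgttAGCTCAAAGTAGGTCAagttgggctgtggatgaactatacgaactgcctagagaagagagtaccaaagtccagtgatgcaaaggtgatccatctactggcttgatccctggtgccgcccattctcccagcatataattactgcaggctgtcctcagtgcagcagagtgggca
The matches begin 74 and 172 bases before the start of Cyp2c55 and Cyp3a11. The search read both strands of windows from 250 bases before to 50 after each gene start for DR3, DR4, DR1 (AGGTCANAGGTCA) and ER6 (TGACCTNNNNNNAGGTCA), with at most 1 mismatch in each 6-base copy, and neither shown match overlaps another. Of 32851 windows of that length, 1.76% held a DR3, 1.75% a DR4, 2.40% a DR1 and 0.825% an ER6. Of 22 drug list members with a window, 2 held a DR3, 1 a DR4, 1 a DR1 and 0 an ER6, and of 16 LXR list members with a window 0 held any of them. A match is a description of letters, and no match says only that these letters are not in the window.

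Exporters and conjugating enzymes followed the cytochromes. Abcb1a, the drug exporter P-glycoprotein of the apical membrane, stood at 2842, 2819.8 and 2859 CPM in Villin-Cre mice given GW3965 and 104, 107 and 102 CPM in the Villin-Cre vehicle group. In floxed mice Abcb1a stood at 510.0, 521 and 497 CPM with GW3965 and 189, 178 and 173 CPM with vehicle. None of the 4 groups overlapped, and the difference of 3.26 ± 0.07 had the smallest adjusted p of all genes tested, 7.0e-15. Its paralogue Abcb1b averaged 90.7 CPM with GW3965 and 5.29 CPM with vehicle in Villin-Cre mice, against 16.8 CPM with GW3965 and 6.68 CPM with vehicle in floxed mice, a difference of 2.72 ± 0.16. Abcc2, which exports conjugates, had a difference of 2.06 ± 0.14, while Abcc3, which exports them across the basolateral membrane, was the member below 0, with -0.94 ± 0.09. Gstm3 was called in Villin-Cre mice alone, at 76.8, 66.3 and 74.6 CPM with GW3965 and 1.13, 1.17 and 0.215 CPM with vehicle. In floxed mice its libraries with GW3965, at 2.29, 0.792 and 1.79 CPM, overlapped those with vehicle, at 2.67, 1.65 and 1.58 CPM. Ces2a, a carboxylesterase, averaged 749 ± 13.7 CPM with GW3965 and 29.9 ± 3.13 CPM with vehicle in Villin-Cre mice, against 59.2 ± 16.7 CPM with GW3965 and 32.8 ± 0.474 CPM with vehicle in floxed mice, a difference of 3.83 ± 0.20. Por, the reductase that feeds electrons to the P450 enzymes, had a difference of 1.40 ± 0.08.

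**Figure D3:**
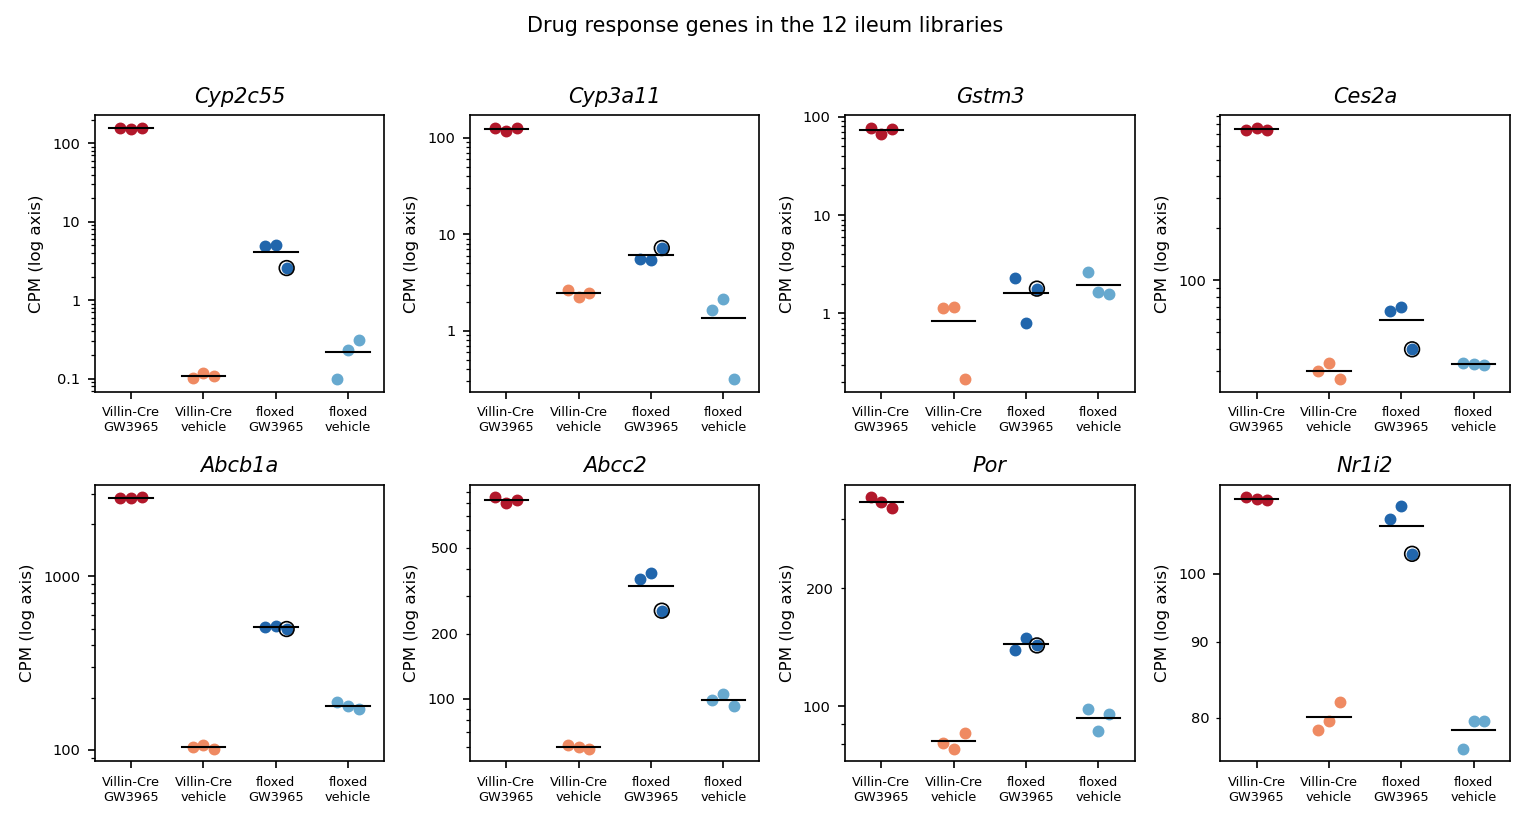
CPM (log axis) of 8 drug response genes in every library, by group, with bars at the group means and a ring around floxed GW3965 replicate 3. All but Nr1i2 are highest in Villin-Cre mice given GW3965 and far above the floxed libraries given the drug, whereas for Nr1i2 the drug groups of the genotypes lie close together.

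Many fatty acid oxidation and absorptive genes also rose further in Villin-Cre mice. All 26 fatty acid oxidation genes tested rose in Villin-Cre mice, against 21.5% of all genes. In floxed mice 14 rose, against 14.7% of all genes, and 5 fell, near the share of 20.9%. A difference above 0 was called for 16, against 14.6% of all genes, and below 0 for none, against 18.4%, with a median of 0.71; without floxed GW3965 replicate 3 the counts were 20 and 1. Cpt1a, the gate for mitochondrial fatty acid entry, was called in Villin-Cre mice alone, with a response of 0.98 ± 0.05, while that in floxed mice was 0.13 ± 0.05 (adjusted p = 0.053). Acadl, an acyl-CoA dehydrogenase, and Pex11a, a peroxisome division gene, had opposite responses. Acadl changed by 0.75 ± 0.09 in Villin-Cre and -0.74 ± 0.09 in floxed mice. Pex11a changed by 1.12 ± 0.11 in Villin-Cre and -0.65 ± 0.11 in floxed mice.

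The absorptive enterocyte list rose nearly whole in both genotypes, 20 of 20 tested in Villin-Cre and 19 in floxed mice, and differed mainly in size. Over all genes 21.5% rose in Villin-Cre and 14.7% in floxed mice. Of the 20 genes, 10 had a larger response in Villin-Cre mice and 8 were shared, against 6.85% and 13.5% of all genes. A difference above 0 was called for 11 and below 0 for 1, with a median difference of 0.37. Without floxed GW3965 replicate 3 these counts were 13 and 4. Lct, the lactase gene, was called in Villin-Cre mice alone. It stood at 58.9, 61.7 and 62.7 CPM in Villin-Cre mice given GW3965, against 1.23, 0.526 and 0.323 CPM in the Villin-Cre vehicle group, a difference of 5.27 ± 0.39. In floxed mice Lct stood at 2.19, 2.83 and 5.75 CPM with GW3965 and 2.37, 2.24 and 2.05 CPM with vehicle, a response that was not called (adjusted p = 0.19). The peptide transporter Slc15a1 averaged 1115 CPM with GW3965 and 249 CPM with vehicle in Villin-Cre mice, against 565 CPM with GW3965 and 235 CPM with vehicle in floxed mice, and the amino acid transporter Slc6a19 had a difference of 0.54 ± 0.07.

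In the lipid absorption list, 10 of 18 had a difference above 0 and 2 below it, against 14.6% and 18.4% of all genes. Without floxed GW3965 replicate 3 these counts were 10 and 4. Sar1b, the small GTPase of chylomicron transport, averaged 103 ± 7.24 CPM with GW3965 and 32.9 ± 2.42 CPM with vehicle in Villin-Cre mice, against 40.7 ± 1.76 CPM with GW3965 and 41.8 ± 3.24 CPM with vehicle in floxed mice, a difference of 1.67 ± 0.11. Mttp, which loads lipid onto apolipoprotein B, had opposite responses, 0.62 ± 0.05 in Villin-Cre and -0.48 ± 0.05 in floxed mice. Fabp2, a fatty acid binding protein of enterocytes, averaged 3329 CPM with GW3965 and 676 CPM with vehicle in Villin-Cre mice, against 874 CPM with GW3965 and 632 CPM with vehicle in floxed mice, a difference of 1.85 ± 0.13. Fabp6, its bile acid binding relative in the ileum, stood at 5170.1, 5266 and 5053 CPM with GW3965 and 1182, 1176 and 1302 CPM with vehicle in Villin-Cre mice. In floxed mice Fabp6 stood at 1638, 1661 and 1093 CPM with GW3965 and 1355, 1268 and 1393 CPM with vehicle, where only replicate 3 of the drug group was below the vehicle libraries. Of 12 bile acid genes, 5 had a difference above 0, against 14.6% of all genes, and 2 below it, near the share of 18.4%. The basolateral exporter Slc51a had a difference of 0.84 ± 0.12. Fgf15, the hormone gene that the bile acid receptor switches on, rested on single libraries. It stood at 22.6, 20.8 and 0.828 CPM in floxed mice given GW3965, with replicate 3 far below the others, and its difference of 1.81 ± 0.98 was not called (adjusted p = 0.17), but was called without floxed GW3965 replicate 1 (2.52).

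Of the shared responses, 1022 rose (5.48%) and 1490 fell (7.99%). The largest that rose were Cyp3a25, Cyp2d26, Olfr165, Hsd3b2, Fbp1 and Rdh7. Cyp2d26 stood at 309, 311 and 308 CPM with GW3965 and 26.5, 23.4 and 30.2 CPM with vehicle in Villin-Cre mice. In floxed mice Cyp2d26 stood at 121, 138 and 136 CPM with GW3965 and 9.38, 10.6 and 10.4 CPM with vehicle. Drug and vehicle libraries were far apart in both genotypes, where lack of overlap was a condition for being named by size. The 95% interval of the difference was -0.37 to 0.13. Hsd3b2, a steroid dehydrogenase, and Rdh7, a retinol dehydrogenase, had intervals of -0.88 to 0.61 and -0.43 to 0.54. Fbp1, the gluconeogenic fructose bisphosphatase, had an interval of -0.81 to 0.62. The interval of Cyp3a25, 0.04 to 1.59, lay wholly above 0. Among the 6 largest that fell, Iigp1, Tgtp1 and Tgtp2 are interferon-induced GTPases, Cxcl9 is an interferon-induced chemokine, Serpina3f a protease inhibitor and Pla2g5 a phospholipase. Pla2g5 averaged 0.224 CPM with GW3965 and 2.11 CPM with vehicle in Villin-Cre mice, against 4.10 and 15.2 CPM in floxed mice. Its Villin-Cre level with the drug was below the added 0.5 CPM, so the scale understates that fall and its sorting as shared depends on it. Iigp1 averaged 4.23 ± 1.13 CPM with GW3965 and 24.2 ± 0.997 CPM with vehicle in Villin-Cre mice, against 13.0 ± 6.75 CPM with GW3965 and 82.7 ± 8.14 CPM with vehicle in floxed mice, with a 95% interval of the difference of -0.51 to 1.26. Cxcl9 had responses of -1.83 ± 0.16 in Villin-Cre and -2.27 ± 0.16 in floxed mice. The interval of Tgtp1, 0.14 to 1.67, lay wholly above 0. A difference was called for Cxcl9 (0.59) and Tgtp1 (1.05) without floxed GW3965 replicate 1, and for Tgtp1 (1.15) and Tgtp2 (0.79) without floxed GW3965 replicate 2. With a pseudocount of 2 it was called for Tgtp1 (1.01), Tgtp2 (0.70) and Serpina3f (0.66), and with the replicate block for Tgtp1 (0.91). Of 24 type I interferon genes tested, 10 were shared, against 13.5% of all genes. In Villin-Cre mice 16 fell, against 31.1% of all genes, and in floxed mice 15, against 20.9%. The sensor Zbp1 fell further in Villin-Cre mice, with responses of -3.67 ± 0.18 in Villin-Cre and -2.12 ± 0.18 in floxed mice. Cell cycle genes were shared in 12 of 24 cases, against 13.5% of all genes. A difference below 0 was called for 6 and above 0 for 4, beside 18.4% and 14.6% of all genes. Without floxed GW3965 replicate 3 these counts were 10 and 5. Mki67, the proliferation marker, fell in both genotypes and further in Villin-Cre mice, with a difference of -0.62 ± 0.15.

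Most genes of smooth muscle and matrix fell in both genotypes and further in Villin-Cre mice. All 12 smooth muscle genes tested had a difference below 0, 11 of them sorted as larger in Villin-Cre mice, with a median difference of -1.68. Acta2, smooth muscle actin, stood at 136, 140.3 and 142 CPM in Villin-Cre mice given GW3965 and 808, 805 and 846 CPM in the Villin-Cre vehicle group. In floxed mice Acta2 stood at 404, 434 and 539 CPM with GW3965 and 745, 749.6 and 749 CPM with vehicle. The drug groups lay below their vehicle groups without overlap, and the difference was -1.84 ± 0.11 (adjusted p = 2.2e-09). Tagln, Cnn1 and Myh11, contractile genes, had differences of -1.79, -2.21 and -1.62. The summed level of the list was 1432 to 1453 CPM in Villin-Cre mice given GW3965, 8361 to 8617 CPM in the Villin-Cre vehicle group, 3279 to 4866 CPM in floxed mice given GW3965 and 7756 to 7764 CPM in floxed mice given vehicle. In whole tissue, fewer cells of a type and less RNA per cell cannot be told apart, and the share of muscle in each piece was not tested as a source of the other differences.

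Of 29 matrix genes, 22 had a difference below 0 and none above it, 19 of them sorted as larger in Villin-Cre mice. Thbs2, a matricellular glycoprotein, averaged 5.34 ± 0.756 CPM with GW3965 and 44.4 ± 2.61 CPM with vehicle in Villin-Cre mice, against 26.9 ± 2.81 CPM with GW3965 and 41.4 ± 1.88 CPM with vehicle in floxed mice, a difference of -2.33 ± 0.15. Dcn, a collagen-binding proteoglycan, Eln, elastin, and Loxl1, a crosslinking enzyme, had differences of -1.83, -1.85 and -1.99. Named by size in the same class were the matrix genes Dpt and Mfap4, the muscle creatine kinase Ckm, the ubiquitin-like Ubd, the gasdermin Gsdmc4 and the repressor Nfil3. Dpt had a difference of -2.84 ± 0.16, Gsdmc4 of -2.85 ± 0.21 and Ubd of -2.73 ± 0.49. Among those that rose further, besides the drug genes, was the beta-defensin Defb37, at 6.71 to 9.95 CPM in Villin-Cre mice given GW3965 and no more than 0.697 CPM in each library of the other groups.

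The 267 genes with a larger response in floxed mice, 413 without floxed GW3965 replicate 3, included 183 that rose (0.981%) and 84 that fell (0.450%). Lama3, a laminin chain of the epithelial basement membrane, led those that rose, at 338, 328 and 336 CPM with GW3965 and 215, 213 and 218 CPM with vehicle in Villin-Cre mice. In floxed mice Lama3 stood at 308, 335 and 332 CPM with GW3965 and 49.5, 54.8 and 55.8 CPM with vehicle. The drug groups of the genotypes overlapped, and the floxed vehicle libraries stood lowest, so the difference of -1.96 ± 0.08 came with unequal vehicle levels. Krba1 showed the same order of levels, at 66.9 CPM with GW3965 and 45.2 CPM with vehicle in Villin-Cre mice, against 63.8 CPM with GW3965 and 12.9 CPM with vehicle in floxed mice. Abca1, Abcg1 and the desaturase Scd3 were also named by size here, as was the sulfotransferase Chst8, at 6.50 CPM with GW3965 and 2.40 CPM with vehicle in Villin-Cre mice, against 12.2 CPM with GW3965 and 1.20 CPM with vehicle in floxed mice. Among those that fell, Abca13, a relative of Abca1, averaged 0.345 CPM with GW3965 and 2.14 CPM with vehicle in Villin-Cre mice, against 0.366 CPM with GW3965 and 12.7 CPM with vehicle in floxed mice, and Nudt5, an ADP-ribose hydrolase, averaged 13.4 CPM with GW3965 and 22.8 CPM with vehicle in Villin-Cre mice, against 11.8 CPM with GW3965 and 75.7 CPM with vehicle in floxed mice. Inf2, Clec9a, Gpx2 and Arhgap19 had differences of 1.17, 1.06, 0.96 and 0.87, and all 6 were highest in floxed mice given vehicle. The Clec9a call was lost without Villin-Cre vehicle replicate 3 (0.90).

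Responses called in Villin-Cre mice alone took in 1098 genes that rose (5.89%) and 1751 that fell (9.39%). Besides Gstm3, Lct and Cyp2b10, those that rose most were Lemd1, Slc6a2 and Wnt3a. Lemd1 stood at 28.9, 33.1 and 33.1 CPM in Villin-Cre mice given GW3965, against 0.103, 0.0584 and 0.323 CPM in the Villin-Cre vehicle group. In floxed mice Lemd1 stood at 0.243, 0 and 0.174 CPM with GW3965 and 0.198, 0.176 and 0.210 CPM with vehicle. Slc6a2, the noradrenaline transporter, was at 20.6 to 22.8 CPM in Villin-Cre mice given GW3965, at 0.215 to 0.411 CPM in the Villin-Cre vehicle group, at 0 to 0.218 CPM in floxed mice given GW3965 and at 0 reads in each floxed vehicle library. Wnt3a, a Wnt ligand, was at 9.24 to 11.1 CPM in Villin-Cre mice given GW3965 and at no more than 0.103 CPM in each library of the other groups. All 3, and Cyp2b10, reached 0.5 CPM in Villin-Cre mice given GW3965 alone. They passed the filter only through that group, so being high in it alone is no separate result.

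Those that fell in Villin-Cre mice alone included most enteric neuron and glia genes. Of 17 tested, 16 had a difference below 0 and none above it, 13 of them sorted as called in Villin-Cre mice alone, with a median of -1.67. Nos1, the neuronal nitric oxide synthase, stood at 2.17, 2.23 and 2.51 CPM in Villin-Cre mice given GW3965 and 10.1, 10.8 and 10.5 CPM in the Villin-Cre vehicle group. In floxed mice Nos1 stood at 8.37, 9.11 and 11.0 CPM with GW3965 and 7.26, 9.53 and 9.04 CPM with vehicle. Every Villin-Cre library given the drug was below all others, and the difference was -2.10 ± 0.21 (adjusted p = 8.9e-07). The neuropeptide galanin gene Gal, the neuronal tubulin Tubb3 and the glial factor Sox10 had differences of -2.86, -2.34 and -2.04. The summed level of the list was 27.9 to 31.5 CPM in Villin-Cre mice given GW3965, against 82.4 to 84.5 CPM in the Villin-Cre vehicle group. It was 69.9 to 83.4 CPM in floxed mice given GW3965 and 61.9 to 69.8 CPM in floxed mice given vehicle. The smooth muscle sums given above were also lowest in Villin-Cre mice given GW3965, and the part of muscle wall in these values was not tested. Of the 6 genes named by size, Atg3, an autophagy conjugating enzyme, stood apart in Villin-Cre mice given vehicle, at 334, 362 and 427 CPM, against 37.8 to 41.6 CPM in Villin-Cre mice given GW3965. In floxed mice Atg3 was at 27.6 to 33.2 CPM with GW3965 and 31.3 to 32.4 CPM with vehicle. Epha3, an ephrin receptor, had the same order, at 0.299 CPM with GW3965 and 8.19 CPM with vehicle in Villin-Cre mice, against 0.762 CPM with GW3965 and 0.763 CPM with vehicle in floxed mice. Gsdmc3, Cilp, Fat3 and Bhmt had differences of -3.54, -3.37, -2.96 and -2.92.

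Responses called in floxed mice alone took in 380 genes that rose (2.04%) and 547 that fell (2.93%). Dio1, a deiodinase that converts thyroid hormones, stood at 38.2, 34.7 and 36.6 CPM with GW3965 and 37.9, 36.5 and 38.3 CPM with vehicle in Villin-Cre mice. In floxed mice Dio1 stood at 54.2, 57.2 and 59.8 CPM with GW3965 and 7.65, 6.12 and 6.25 CPM with vehicle. Villin-Cre libraries overlapped whether or not the drug was given, floxed vehicle libraries were the lowest, and the difference was -3.05 ± 0.12 (adjusted p = 3.7e-11). Scd2, described above, the B cell factor Pax5, the leptin gene Lep, Cyp2d34 and the microRNA gene Mir196a-1 were also named by size among those that rose. Pax5 and Cyp2d34 reached 0.5 CPM in floxed mice given GW3965 alone. Both passed the filter only through that group, so being high in it alone is no separate result. Lep averaged 1.25 CPM with GW3965 and 2.17 CPM with vehicle in Villin-Cre mice, against 1.86 CPM with GW3965 and 0.214 CPM with vehicle in floxed mice. Among those that fell, B3galt5, a glycosyltransferase, averaged 2.52 CPM with GW3965 and 3.31 CPM with vehicle in Villin-Cre mice, against 3.29 CPM with GW3965 and 26.1 CPM with vehicle in floxed mice, and Anxa4, an annexin, averaged 232 CPM with GW3965 and 233 CPM with vehicle in Villin-Cre mice, against 155 CPM with GW3965 and 407 CPM with vehicle in floxed mice. Alox15, a lipoxygenase, and Ibsp, Gad2 and Gimd1 had differences of 2.05, 1.90, 2.09 and 2.41, all with their highest level in floxed mice given vehicle. Alox15 and Ibsp reached 0.5 CPM in that group alone and passed the filter only through it. Gimd1 also passed only through it, reaching 0.5 CPM elsewhere just in Villin-Cre GW3965 replicate 2 (0.702 CPM). The calls of Alox15 and Ibsp were lost on the deposited log2 values (adjusted p = 0.101 and 0.283) and with voom (adjusted p = 0.118 and 0.247).

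Among secretory cell genes, 3 of 12 goblet and 3 of 16 enteroendocrine genes were sorted as called in floxed mice alone, against 4.97% of all genes. For tuft cell genes it was 0 of 11, near that share. Of 12 goblet cell genes, 6 had a difference below 0 and none above it, against 18.4% and 14.6% of all genes. Atoh1, the factor that commits cells to the secretory lineage, averaged 17.2 ± 0.408 CPM with GW3965 and 19.0 ± 1.38 CPM with vehicle in Villin-Cre mice, against 28.6 ± 2.90 CPM with GW3965 and 16.0 ± 0.630 CPM with vehicle in floxed mice, a difference of -0.96 ± 0.13. Clca1, a secreted mucus protease, had opposite responses, -0.54 ± 0.05 in Villin-Cre and 0.96 ± 0.05 in floxed mice. Fer1l6 and the mucus protein gene Fcgbp had differences of -0.99 and -0.73. Of 16 enteroendocrine genes, 7 had a difference below 0, against 18.4% of all genes, and 2 above it, near the share of 14.6%. Pyy, the ileal satiety hormone gene, stood at 47.5, 46.9 and 45.0 CPM with GW3965 and 30.0, 26.2 and 31.2 CPM with vehicle in Villin-Cre mice. In floxed mice Pyy stood at 46.4, 45.9 and 67.4 CPM with GW3965 and 9.98, 10.6 and 11.8 CPM with vehicle, a difference of -1.56 ± 0.17. Sst, somatostatin, and Nts, neurotensin, also rose less in Villin-Cre mice or were not called there, with differences of -1.68 and -1.03. Of 11 tuft cell genes, 2 had a difference below 0, a share near the 18.4% of all genes, the taste channel Trpm5 (-1.19) and Sh2d6 (-0.79); without floxed GW3965 replicate 3 the count was 3.

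Unfolded protein response genes fell in floxed mice and not as a list in Villin-Cre mice. Of 17 tested, 14 fell in floxed mice, against 20.9% of all genes, and 1 rose, against 14.7%. In Villin-Cre mice 6 fell, near the share of 31.1%, and 7 rose, against 21.5%. A difference above 0 was called for 16. Hspa5, the main chaperone of the endoplasmic reticulum, stood at 226, 217 and 223 CPM with GW3965 and 203, 215 and 208 CPM with vehicle in Villin-Cre mice. In floxed mice Hspa5 stood at 187, 189.6 and 192 CPM with GW3965 and 317, 322 and 307 CPM with vehicle, the highest libraries of all, and the difference was 0.82 ± 0.07. Manf, Pdia3 and Hsp90b1 had opposite responses, with differences of 1.18, 1.02 and 0.91. Mitochondrially encoded genes showed a like order. All 13 fell in floxed mice, against 20.9% of all genes. In Villin-Cre mice 4 rose and 2 fell, beside 21.5% and 31.1% of all genes. All 13 had a difference above 0, with a median of 0.76. Mitochondrial genes took 2.95 to 3.35% of reads in Villin-Cre mice given GW3965, 2.30 to 2.80% in Villin-Cre mice given vehicle, 2.37 to 3.03% in floxed mice given GW3965 and 3.63 to 4.46% in floxed mice given vehicle, and the part of RNA quality in this was not tested. Of 14 genes of the NRF2 oxidative stress response, 11 had a difference above 0 and 1 below it. Txnrd1, thioredoxin reductase, was called in Villin-Cre mice alone, with 0.69 ± 0.05, while Gclm, which limits glutathione synthesis, rose by 1.61 ± 0.07 in Villin-Cre and 0.72 ± 0.07 in floxed mice.

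The 667 opposite responses divided into 393 genes higher with GW3965 in Villin-Cre mice (2.11%) and 274 lower (1.47%). Plb1, a brush border phospholipase, had the largest difference of any gene named. It stood at 348, 324 and 338 CPM in Villin-Cre mice given GW3965 and 5.04, 4.27 and 3.77 CPM in the Villin-Cre vehicle group. In floxed mice Plb1 stood at 35.0, 37.7 and 5.01 CPM with GW3965 and 116, 113 and 111 CPM with vehicle. The order of the drug and vehicle libraries was turned round between genotypes, with replicate 3 of floxed GW3965 near the Villin-Cre vehicle level, and the difference was 8.66 ± 0.65 (adjusted p = 4.3e-08). Fam151a averaged 16.6 CPM with GW3965 and 0.314 CPM with vehicle in Villin-Cre mice, against 0.518 CPM with GW3965 and 3.23 CPM with vehicle in floxed mice, a difference of 6.27 ± 0.31. Gata4, the factor that holds jejunal identity and represses ileal genes, stood at 11.6, 12.4 and 10.9 CPM with GW3965 and 5.09, 4.38 and 5.01 CPM with vehicle in Villin-Cre mice. In floxed mice Gata4 stood at 3.75, 4.13 and 2.75 CPM with GW3965 and 28.3, 33.6 and 32.6 CPM with vehicle. Floxed vehicle libraries were the highest, and the difference was 4.19 ± 0.20 (adjusted p = 2.4e-10). Its relatives Gata5 and Gata6 and the intestinal factor Cdx2 had smaller differences, 0.67, 0.76 and 0.40. Of 11 regional identity genes tested, 6 had a difference above 0, against 14.6% of all genes. A difference below 0 was called for 2 of the list, near the share of 18.4%. Mt2, a metallothionein, changed by 1.85 ± 0.13 in Villin-Cre and -1.49 ± 0.13 in floxed mice. Lrg1, an acute phase glycoprotein, and Rims2, a vesicle release gene, had differences of 3.63 ± 0.31 and 2.41 ± 0.26.

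In the other direction, Saa1 and Slc6a14 had the largest differences of the genes named. Saa1, an acute phase protein made by stimulated epithelium, stood at 2.64, 2.23 and 1.99 CPM with GW3965 and 156, 162 and 148 CPM with vehicle in Villin-Cre mice. In floxed mice Saa1 stood at 299.8, 302 and 86.2 CPM with GW3965 and 61.1, 65.7 and 58.4 CPM with vehicle. Drug and vehicle libraries did not overlap in either genotype, which was a condition for being named by size. Replicate 3 was the lowest of the floxed drug group, and the difference was -7.49 ± 0.43 (adjusted p = 2.2e-09). Slc6a14, an amino acid transporter, stood at 0.378, 0.660 and 0.379 CPM with GW3965 and 19.3, 16.4 and 15.1 CPM with vehicle in Villin-Cre mice. In floxed mice Slc6a14 stood at 42.9, 49.5 and 13.6 CPM with GW3965 and 2.37, 3.29 and 2.52 CPM with vehicle, a difference of -7.45 ± 0.47. Abca12, a lipid transporter, and Fam189a2 had differences of -4.49 ± 0.40 and -2.87 ± 0.20. Of 15 Reg lectin and defence genes, 8 had a difference below 0 and none above it, and 1 was sorted as opposite. The bactericidal lectins Reg3g and Reg3b fell in both genotypes, with differences of -2.06 ± 0.13 and -1.82 ± 0.14. Pigr, the receptor that carries antibodies into the lumen, had a response of -2.01 ± 0.11 in Villin-Cre mice, and its floxed response of 0.09 ± 0.11 was not called.

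T and NK cell genes were below 0 in 14 of 16 cases and above it in none, 5 of them sorted as opposite, with a median of -1.67. In Villin-Cre mice 14 fell and none rose, against 31.1% and 21.5% of all genes. In floxed mice 7 rose and none fell, against 14.7% and 20.9% of all genes. Gzma, a granzyme, stood at 16.6, 12.9 and 15.1 CPM with GW3965 and 48.2, 49.8 and 49.2 CPM with vehicle in Villin-Cre mice. In floxed mice Gzma stood at 18.0, 18.9 and 22.4 CPM with GW3965 and 12.6, 13.6 and 11.5 CPM with vehicle. Villin-Cre vehicle libraries were the highest, and the difference was -2.33 ± 0.15 (adjusted p = 8.3e-09). Gzmb, Cd8a and Cd3e, which mark cytotoxic and T cells, had differences of -2.99, -2.20 and -1.87. Il21r, a cytokine receptor, and Ikzf3, a lymphocyte factor, were the lymphocyte genes named by size. Ikzf3 stood at 7.79, 5.98 and 8.81 CPM with GW3965 and 49.6, 51.3 and 52.3 CPM with vehicle in Villin-Cre mice. In floxed mice Ikzf3 stood at 39.0, 44.6 and 11.0 CPM with GW3965, replicate 3 being beside the vehicle level, and 10.5, 9.23 and 9.35 CPM with vehicle.

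**Figure D4:**
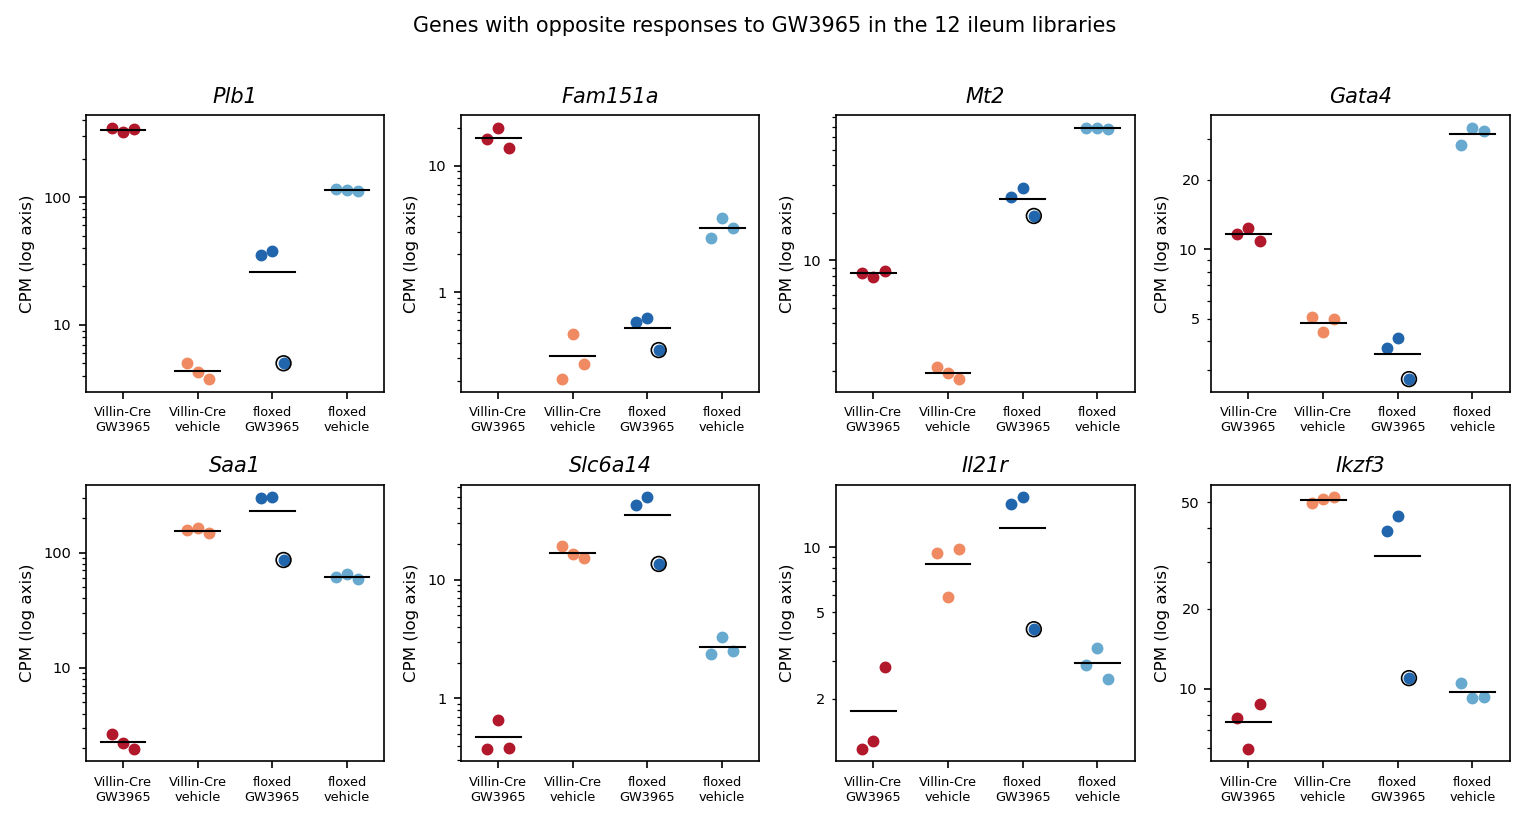
CPM (log axis) of 8 genes with opposite responses to GW3965 in every library, by group, with bars at the group means and a ring around floxed GW3965 replicate 3. Plb1, Fam151a, Mt2 and Gata4 are higher with the drug in Villin-Cre mice and lower with it in floxed mice, and Saa1, Slc6a14, Il21r and Ikzf3 the reverse, with the ringed library near the vehicle level for Il21r and Ikzf3.

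B cell, MHC class II and Paneth cell genes depended on floxed GW3965 replicate 3. Of 12 B cell genes, 4 had a difference below 0, and all 12 without that library. The called genes of the list were Cd79a, Pax5, Fcrla and Cr2, with differences of -3.29, -3.24, -1.80 and -2.80, and limma with voom weights called none of them (adjusted p = 0.112, 0.495, 0.142 and 0.46). Pax5 passed the filter only through floxed mice given GW3965. Cr2 kept its call without floxed vehicle replicate 1 or floxed GW3965 replicate 3 and lost it without each of the other libraries (-2.94 to -2.12). Fcrla lost its call without floxed vehicle replicate 2, floxed GW3965 replicate 1 or 2, or Villin-Cre GW3965 replicate 2 (-1.67 to -1.46). The summed level of the list was 10.5 to 204 CPM in floxed mice given GW3965 and no more than 18.6 CPM in the libraries of the other groups. Of 9 MHC class II genes, 5 were below 0, and all 9 without that library. Of 9 plasma cell genes, 2 were below 0 and 2 above it, beside 18.4% and 14.6% of all genes, and 5 and 2 without that library. Of 11 Paneth cell genes, 5 were below 0, and 10 without it. Leaving out any 1 of the other libraries gave 2 to 4 B cell, 3 to 4 MHC class II, 0 to 1 plasma cell and 2 to 4 Paneth cell genes below 0, and voom gave 0, 3, 0 and 1. The lysozyme gene Lyz1 stood at 541, 547 and 91.8 CPM in floxed mice given GW3965, with a difference of -1.14 ± 0.61 that was not called (adjusted p = 0.17) and of -2.00, called, without replicate 3 of that group. Spink4, a secretory trypsin inhibitor gene, fell further in Villin-Cre mice, with a difference of -0.94 ± 0.12.

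The remaining lists held other cell types, the clock and immediate early genes. Of 13 macrophage genes, 6 were above 0, against 14.6% of all genes, and 2 below it, near the share of 18.4%. Csf1r, the macrophage growth factor receptor, had responses of -0.40 ± 0.10 in Villin-Cre and -1.15 ± 0.10 in floxed mice. Crypt stem cell genes were below 0 in 8 of 14 cases, against 18.4% of all genes, and above it in 1, against 14.6%. Lrig1, a restraint on growth factor signalling, had a difference of -0.98 ± 0.09 and Smoc2 of -1.12 ± 0.15. Endothelial genes were above 0 in 3 and below it in 2 of 12 cases, with the receptor Kdr at 1.07 ± 0.12, and fat cell genes were above 0 in 3 and below it in 3 of 10, beside 14.6% above and 18.4% below over all genes. The endothelial count below 0 was 0 without floxed vehicle replicate 2, floxed GW3965 replicate 1 or 2, or Villin-Cre vehicle replicate 2. Circadian clock genes were above 0 in 9 of 14 cases and below it in 3, with a median difference of 1.27. Per3, a repressor of the clock, averaged 123 CPM with GW3965 and 14.0 CPM with vehicle in Villin-Cre mice, against 78.7 CPM with GW3965 and 40.8 CPM with vehicle in floxed mice, and its floxed GW3965 replicates stood at 95.2, 96.9 and 43.9 CPM. Immediate early genes, which answer stimuli within minutes, were below 0 in 7 of 12 cases and above it in none, or in 8 and 1 without floxed GW3965 replicate 3, and Egr1 changed by -1.54 ± 0.11 in Villin-Cre and 0.85 ± 0.11 in floxed mice. No source used here gives the hour at which tissue was taken from each mouse, and its part in the other differences was not tested.

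**Figure D5:**
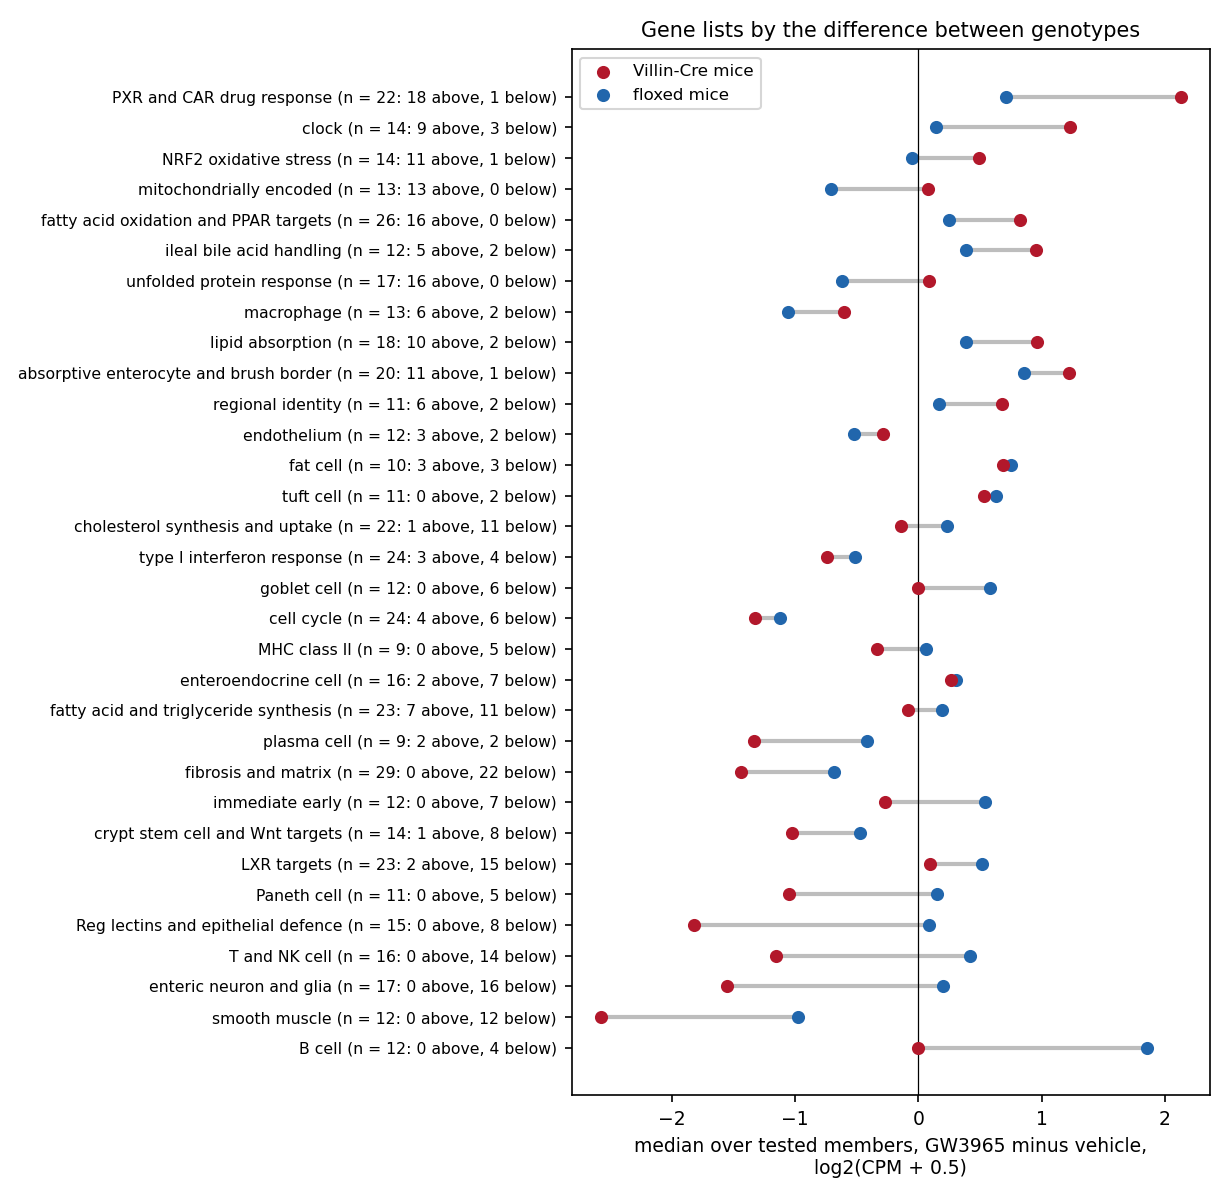
Median response to GW3965 over the tested members of 32 gene lists (log2(CPM + 0.5), GW3965 minus vehicle) in Villin-Cre and in floxed mice, ordered by the median difference, with the number tested and the numbers of called differences above and below 0 beside each name. Drug response, clock and NRF2 lists lie at the top with larger Villin-Cre medians, and smooth muscle, neuron, T cell and B cell lists at the bottom with smaller ones.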

How the data were processed

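RNA was prepared with RNeasy kits, depleted of ribosomal RNA by an RNase H method and read in pairs of 150 bases, per the labels' protocols. STAR 2.5.1a, featureCounts 1.4.6-p5 and the GRCm38 build are named in the submitters' processing notes. The authors deposited log2 values for 40757 entries, of which 276 repeats were dropped. The lowest value, -5.62, stands for 0 reads. With it taken as a prior, the deposited log2 values gave whole reads for 100% of low values (up to 1000 reads, tolerance 0.05 reads), and from these CPM. Of genes with 1 to 10 reads, 69.0 to 72.8% had an even number, so both mates of most fragments were counted. Intervals rest on the spread between libraries, possibly technical, and may lack the spread between animals. Of 40481 genes, 40254 were found in GENCODE M21.

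The fit used log2(CPM + 0.5) in limma 3.58.1 (R 4.3.3), with an empirical Bayes trend and 4 group means over 12 libraries. Tested genes had at least 0.5 CPM in 3 or more libraries. The deposited unit was log2, so the test planned for counts gave way to the one planned for log values. The members, gene lists and rules were chosen with earlier results of these data known. Named genes are Abca1, up to 8 LXR targets and up to 4 members of other lists by smallest p, and up to 6 genes a class and direction by size, with at least 1 CPM, a class that held without floxed GW3965 replicate 3 and no overlap of libraries where called. Mylip, Scd2, Abcb4, Nr1h3, Nr1i2, Nr1i3, Por, Per3, Lyz1, Fgf15, Mki67, Zbp1 and Csf1r were in part named after their values were seen. Alternatives changed the scaling, filter, pseudocount, weights, replicate block and library set. The fit was tested on simulated libraries with planted differences. Some genes that the rule takes are not reported here.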

Additional observations from a re-analysis of the deposited data

Results flagged for a closer look

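The effect of GW3965 differed between the genotypes, by the test of the difference itself, for 2729 genes above 0 and 3425 below it, and 667 genes had called responses of opposite sign. Among the genes named here, those higher with GW3965 in Villin-Cre mice and lower with it in floxed mice had these differences in log2(CPM + 0.5). Plb1 stood at 8.66, Fam151a at 6.27, Gata4 at 4.19, Lrg1 at 3.63, Mt2 at 3.34, Nr1i3 at 2.69 and Rims2 at 2.41. Cyp3a13 stood at 1.95, Pex11a at 1.78, Acadl at 1.49, Manf at 1.18, Mttp at 1.10, Pdia3 at 1.02 and Hsp90b1 at 0.91. Those lower with GW3965 in Villin-Cre mice and higher with it in floxed mice were Saa1 at -7.49, Slc6a14 at -7.45, Abca12 at -4.49, Ikzf3 at -4.12, Il21r at -3.71, Cd79a at -3.29 and Fam189a2 at -2.87. The others were Egr1 at -2.39, Gzma at -2.33, Cd8a at -2.20, Cd3e at -1.87, Clca1 at -1.50 and Acaca at -0.81. The call of Cd79a was lost with voom (adjusted p = 0.112).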

How the results depend on the processing

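The 7 counts stayed within 1.5 times under rescaling by the median of gene ratios, CPM without Gm26917, no filter, a 2 CPM filter, voom, log2 values as deposited, the replicate block and a pseudocount of 2. The share of called differences above 0 was 44.3%, against 48.0% after rescaling and 37.8% without Gm26917. With close libraries averaged, shared responses numbered 78, of which 30 were shared, 27 larger in floxed and 21 larger in Villin-Cre mice with all libraries, and each of the other counts was 0; this setting has 1 residual degree of freedom, and the cause was not tested beyond it. At 2-fold or more, 635 differences were above 0 and 1736 below it, with 441 shared, 106 of different size, 1444 in Villin-Cre mice alone, 202 in floxed mice alone and 36 opposite. Leaving out each library gave 2313 to 3111 above 0, 3011 to 4138 below it, 2258 to 2482 shared, 1200 to 1967 of different size, 2466 to 2941 in Villin-Cre mice alone, 740 to 1064 in floxed mice alone and 496 to 1101 opposite. The highest opposite count, 1101, came without floxed GW3965 replicate 3. Same-numbered libraries did not deviate together (correlations of -0.04 to 0.05); with the replicate number as a block, 2731 differences were above 0 and 3401 below it. Of 160 genes named, none with a called difference changed sign, and 143 of 143 called differences were lost with close libraries averaged. Under at least 1 other alternative, Alox15, Cd79a, Clec9a, Cr2, Fcrla, Ibsp, Nr1h3 and Pax5 lost a called difference, and Cxcl9, Cyp3a25, Fgf15, Lyz1, Serpina3f, Tgtp1 and Tgtp2 gained one. Depth limits genes near the 0.5 CPM filter most.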
